A study of Homo sapiens with 20 samples.

Results

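LP-1 multiple myeloma cells given the inactive mirror-image form of a BET inhibitor were compared with untreated LP-1 cells. The comparison used 6 of the 20 exon arrays of the series, chosen by their titles alone: 4 arrays of cells given 500 nM of the inactive enantiomer (2 at 4 h and 2 at 8 h) and 2 arrays of cells that received no compound (0 h). The other arrays were LP-1 cells given the active BET inhibitor at the same dose and times, and the same 5 groups of Raji, a Burkitt lymphoma line. All groups of a line are the same cultured line, LP-1 in IMDM and Raji in RPMI medium, with 2 biological replicates each. The compound is not named in the labels. No untreated or vehicle-treated sample of 4 or 8 h was among them, so the compound, its solvent and the time in culture cannot be told apart in any difference from untreated cells.

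BET proteins such as BRD2 and BRD3 hold acetylated histones with their bromodomains and help RNA polymerase II to start and elongate transcripts. Active BET inhibitors fill the acetyl-lysine pocket of the bromodomain and release the proteins from chromatin, and in myeloma cells the fall of MYC is their best-known result. An enantiomer has the same atoms and bonds as the drug but the opposite handedness, and it serves as a control for effects that do not need the bromodomain pocket.

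All values are log2 expression values, and a difference of 1 is a doubling of the signal. Differences are given as log2 fold changes with a standard error (SE) from limma and a p adjusted by Benjamini-Hochberg over all 22011 probe sets. Calls, in either direction, were made where the adjusted p was below 0.05, two-sided. The cells kept the markers of their type: all 10 plasma cell markers measured lay above the array median on average in each of the 3 groups. The mean over those 10 markers was 8.35 to 8.56 per array with the inactive enantiomer and 8.60 to 8.79 in untreated cells. With both times pooled 0 of the 10 were called, beside 0.0772% of all probe sets, so this count says little. Their pooled estimate was below 0 for 8 of 10, against 59.8% of all probe sets, with a median of -0.18, against -0.051. Of the markers of other cells, 2 of 8 for mature B cells lay above the array median in inactive-treated cells and 1 of 8 in untreated cells. In all 3 groups 2 of 12 markers of T and NK cells, 1 of 7 of myeloid cells and 1 of 4 of erythroid cells did so, as did 3 to 4 of 11 of epithelial cells and fibroblasts. RNA of a culture was measured as a whole, so fewer cells with a transcript and less transcript per cell cannot be told apart.

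The arrays did not share a scale. The 75th percentile of all probe sets was 7.12 and 7.16 with the inactive enantiomer at 4 h, 6.91 and 7.07 with it at 8 h, and 7.21 and 7.23 in untreated cells. The 4 inactive-treated arrays thus lay below both untreated arrays at this upper quartile, and those of 8 h lay lowest. Pearson's r across probe sets, which are not independent, was 0.976 to 0.989 between replicates and 0.976 to 0.987 between inactive-treated and untreated arrays.

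**Figure D1:**
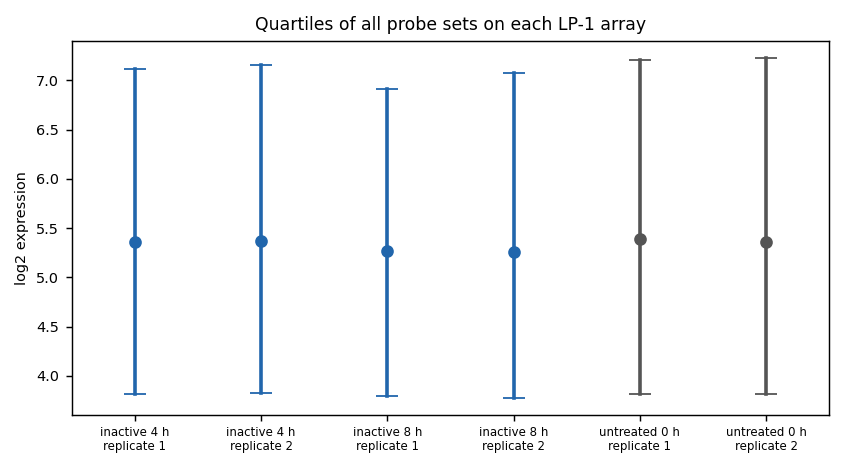
Log2 expression over all 22011 probe sets on each of the 6 LP-1 arrays (points, median; bars, from the 25th to the 75th percentile). The upper end is at 6.91 to 7.16 on the 4 inactive-treated arrays and at 7.21 and 7.23 on the untreated arrays.

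Few probe sets were called between inactive-treated and untreated LP-1 cells, which does not show that few genes differed. With both times pooled, 17 of 22011 probe sets were called (0.0772%), of which 3 were higher (0.0136%) and 14 lower (0.0636%), and 2450 (11.1%) had an unadjusted p under 0.05. The 3 higher ones were HMOX1, ANXA1 and FTL, and the 10 lower ones with a single gene symbol were RPS6KA6, BLNK, MSMO1, ALX1, USP2, PRKAA2, SMC1B, ABCA1, PTGR2 and PABIR3. The other 4 lower probe sets carry several symbols or none. All 17 had inactive-treated and untreated arrays that did not overlap, as did 5128 of all probe sets (23.3%). The excess of lower calls moved with the array scale: quantile normalization left 10 calls, 5 higher and 5 lower, and centring each array on its median left 14, with 4 higher and 10 lower. The count was 7 without either 4 h array, 9 without 8 h replicate 2, 5 without untreated replicate 1 and 7 without untreated replicate 2.

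The largest rises belonged to HMOX1 and ANXA1. HMOX1 encodes heme oxygenase, the stress-induced enzyme that opens heme to biliverdin, carbon monoxide and iron. Its level was 9.99 and 10.05 with the inactive enantiomer at 4 h and 10.17 and 10.30 at 8 h, against 7.76 and 7.56 in untreated cells. The 4 treated arrays lay close together and far above both untreated arrays. HMOX1 rose by 2.47 ± 0.25 (SE), a 5.54-fold difference (adjusted p = 0.00559 by limma). It was called at 4 h (2.36, adjusted p = 0.0325) and at 8 h (2.57, adjusted p = 0.00338), both against the same untreated arrays, though the 4 h call was lost in each fit that left out 1 array. The pooled call held in each of 6 fits that left out 1 array and under the 9 other settings tried, with adjusted p of at most 0.0453.

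ANXA1 encodes annexin, a calcium-dependent binder of phospholipids known as a brake on inflammation and as a glucocorticoid target. Its level was 7.09 and 6.84 with the inactive enantiomer at 4 h and 6.91 and 6.98 at 8 h, against 4.34 and 4.22 in untreated cells. The groups were separated by more than 2 log2 units and both times stood at the same height. ANXA1 rose by 2.67 ± 0.30, a 6.36-fold difference (adjusted p = 0.00618 by limma). Leaving out either untreated array ended the pooled call, as did a fit to the LP-1 arrays alone (adjusted p = 0.189 by limma). The log2 change stayed between 2.61 and 2.73 over all settings run for ANXA1.

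FTL, the light chain of the iron store ferritin, was at 7.93 and 8.12 with the inactive enantiomer at 4 h and at 7.82 and 8.06 at 8 h, against 7.19 and 6.61 in untreated cells. The groups did not overlap, but the untreated arrays differed from each other by more than the 4 treated ones did. FTL rose by 1.08 ± 0.16, a 2.12-fold difference (adjusted p = 0.0261 by limma). It has many processed pseudogenes, so its probe set is uncertain, and the call was lost in 4 of 6 fits that left out 1 array (adjusted p of up to 0.254).

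The active inhibitor at the same dose and time did not give the same levels of these 3 genes. HMOX1 was at 8.05 and 7.97 with the inhibitor at 4 h and at 8.91 and 8.49 with it at 8 h. These levels were 4.04-fold below those with the inactive enantiomer at 4 h (log2 difference -2.02, adjusted p = 0.00415 by limma) and 2.90-fold below at 8 h (-1.53, adjusted p = 0.00865). ANXA1 was at 4.30 and 5.29 with the inhibitor at 4 h and at 6.01 and 5.13 at 8 h, and differed by -2.17 ± 0.34 (adjusted p = 0.00669) and -1.37 ± 0.34 (adjusted p = 0.034) from the inactive form. Both genes were thus lower with the active than with the inactive enantiomer at each time. FTL went the other way, at 9.07 and 8.97 with the inhibitor at 4 h and at 9.19 and 9.31 at 8 h, which was 0.99 ± 0.18 (adjusted p = 0.0138) and 1.31 ± 0.18 (adjusted p = 0.00152) above the inactive form. These comparisons share the inactive-treated arrays with the comparison against untreated cells. Over all probe sets, 502 (2.28%) were called for the inhibitor over the inactive enantiomer at 4 h, 83 higher (0.377%) and 419 lower (1.90%). At 8 h 1262 (5.73%) were called, 828 higher (3.76%) and 434 lower (1.97%). Quantile normalization gave 126 higher and 256 lower at 4 h and 832 higher and 713 lower at 8 h, and centred arrays gave 106 and 296 at 4 h and 600 and 603 at 8 h. Without inhibitor replicate 1, inhibitor replicate 2, inactive replicate 1 or inactive replicate 2, the counts were 186, 971, 78 and 64 at 4 h and 509, 985, 485 and 592 at 8 h.

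**Figure D2:**
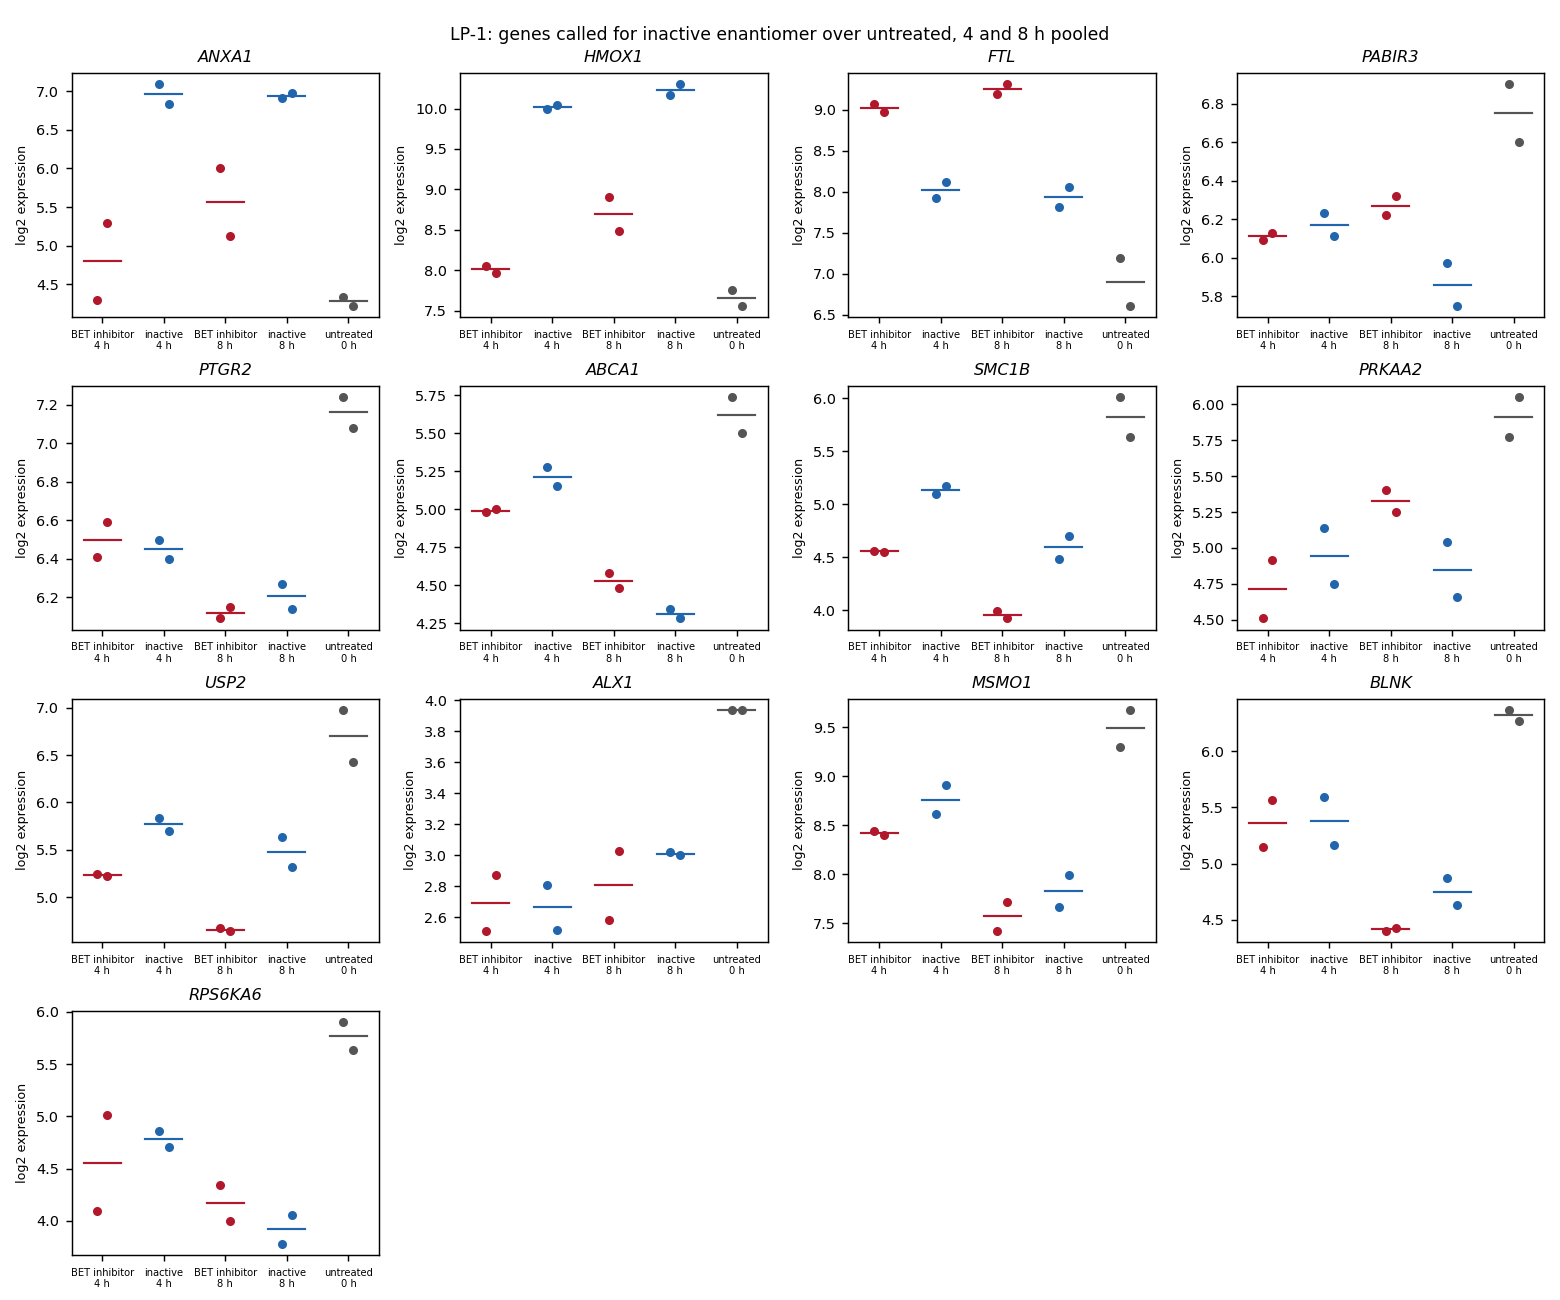
Log2 expression on each LP-1 array (points; lines, group means of 2 arrays) of the 13 single-symbol genes called for inactive enantiomer over untreated, with the BET inhibitor left of the inactive enantiomer at each time and untreated cells at the right. HMOX1 reaches 9.99 to 10.30 with the inactive form against 7.76 and 7.56 in untreated cells, and each vertical axis has its own range.

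The 250 bases before the transcription start are shown for ANXA1 and FTL, which rose, and for MSMO1, the called fall among sterol genes, because stress and sterol factors act at short motifs that can lie there. They come from RefSeq on GRCh38.p14 and all lie on the plus strand. HMOX1 is not shown. Capitals mark matches on either strand to CCAAT (the CCAAT box) or TATAAA (the TATA box).
ANXA1 chr9:73151615-73151864: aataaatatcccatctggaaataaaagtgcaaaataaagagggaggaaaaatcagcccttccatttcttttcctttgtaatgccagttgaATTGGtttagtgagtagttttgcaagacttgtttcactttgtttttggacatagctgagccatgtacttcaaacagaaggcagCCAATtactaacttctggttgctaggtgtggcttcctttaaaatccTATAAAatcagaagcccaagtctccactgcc
FTL chr19:48965059-48965308: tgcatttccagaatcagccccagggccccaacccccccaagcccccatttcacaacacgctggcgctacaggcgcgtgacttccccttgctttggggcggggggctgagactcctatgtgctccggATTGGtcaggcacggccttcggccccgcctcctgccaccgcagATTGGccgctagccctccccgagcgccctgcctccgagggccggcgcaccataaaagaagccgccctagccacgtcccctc
MSMO1 chr4:165327419-165327668: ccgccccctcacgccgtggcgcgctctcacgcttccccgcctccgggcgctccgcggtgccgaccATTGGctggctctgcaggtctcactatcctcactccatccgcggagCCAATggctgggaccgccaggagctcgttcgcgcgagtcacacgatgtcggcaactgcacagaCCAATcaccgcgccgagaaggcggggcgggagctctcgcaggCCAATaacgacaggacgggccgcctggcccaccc
ANXA1 has CCAAT matches 160 and 77 bases and a TATAAA match 31 bases upstream of the start, FTL has CCAAT matches at 124 and 81 bases, and MSMO1 has 4 CCAAT matches at 185, 139, 76 and 34 bases. None of the 3 windows holds TGACNNNGC, the core of the antioxidant response element, or TCACNCCAC, a form of the sterol regulatory element, on either strand. Of 35116 RefSeq promoter windows of this length, 10.9% hold TGACNNNGC, 0.883% TCACNCCAC, 32.0% CCAAT and 10.7% TATAAA. The letters searched say only what stands in these windows.

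HMOX1 and FTL are also textbook targets of NRF2, the transcription factor of the oxidative stress response, which binds antioxidant response elements once its inhibitor KEAP1 is disabled. Of 24 listed NRF2 targets and partners 19 were measured, and HMOX1 and FTL were the 2 called higher, with 0 called lower, beside 0.0136% of all probe sets called higher and 0.0636% called lower. The median change of the 19 was 0.10, against -0.051 over all probe sets, and 11 of the 19 were above 0. SRXN1, which repairs oxidised peroxiredoxins, changed by 0.55 ± 0.17 (adjusted p = 0.236) and GCLM, a subunit of the first enzyme of glutathione synthesis, by 0.48 ± 0.17 (adjusted p = 0.309). TXNRD1, a thioredoxin reductase, changed by 0.16 ± 0.10 and GCLC, the catalytic partner of GCLM, by -0.06 ± 0.15, neither of them called. The list as a whole thus held 2 called genes, and its other 17 members did not pass the test.

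Among falls with a single symbol, the lowest adjusted p-values were those of BLNK, MSMO1, SMC1B and ABCA1. BLNK, the adaptor that links the B cell receptor to its kinases, was at 5.59 and 5.17 with the inactive enantiomer at 4 h and 4.87 and 4.63 at 8 h, against 6.37 and 6.27 in untreated cells. It changed by -1.25 ± 0.14 (2.38-fold, adjusted p = 0.00618 by limma). The 8 mature B cell markers averaged 4.58 to 4.94 per array with the inactive form and 4.76 and 4.78 in untreated cells. MSMO1, a methylsterol oxidase of cholesterol synthesis, was at 8.61 and 8.91 at 4 h and 7.67 and 7.99 at 8 h, against 9.30 and 9.68 in untreated cells, a change of -1.19 ± 0.15 (2.29-fold, adjusted p = 0.0089). In both genes the 8 h arrays were the lowest and no treated array reached an untreated one.

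ABCA1, the transporter that exports cholesterol from cells, was at 5.28 and 5.15 with the inactive enantiomer at 4 h and 4.34 and 4.28 at 8 h, against 5.74 and 5.5 in untreated cells, and changed by -0.86 ± 0.10 (adjusted p = 0.00789 by limma). SMC1B, a cohesin subunit of meiotic chromosomes, was at 5.09 and 5.17 at 4 h and 4.48 and 4.70 at 8 h, against 6.01 and 5.63, and changed by -0.96 ± 0.12 (adjusted p = 0.0089). The order of the groups was the same in both, with the 8 h arrays furthest from untreated cells. Each of these 4 calls was lost in 1 or more of the fits that left out 1 array: MSMO1 without untreated replicate 2, ABCA1 without untreated replicate 1, BLNK without either, and SMC1B in 2 of 6 such fits.

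The other 6 named falls passed the threshold by less. RPS6KA6, a ribosomal S6 kinase of the RSK family, was at 4.86 and 4.71 with the inactive enantiomer at 4 h and 3.78 and 4.06 at 8 h, against 5.90 and 5.63 in untreated cells (change -1.41 ± 0.21, adjusted p = 0.0301 by limma). USP2, a deubiquitinating enzyme with a circadian rhythm in many tissues, was at 5.84, 5.70, 5.63 and 5.32 on the treated arrays, against 6.98 and 6.43 (change -1.09 ± 0.15, adjusted p = 0.0254). PRKAA2, a catalytic subunit of the energy sensor AMPK, was at 5.14, 4.75, 5.04 and 4.66, against 5.77 and 6.05 (change -1.02 ± 0.16, adjusted p = 0.042). In PRKAA2 the 4 h and 8 h arrays overlapped, while in RPS6KA6 and USP2 those of 8 h were lower.

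PTGR2, a reductase of prostaglandin metabolites, changed by -0.83 ± 0.12 and PABIR3 by -0.74 ± 0.11 (adjusted p = 0.0261 by limma for each). ALX1, a homeobox factor of the embryonic face, was at 2.81 and 2.52 at 4 h and 3.02 and 3.0 at 8 h, against 3.94 and 3.94 in untreated cells (change -1.10 ± 0.14, adjusted p = 0.0126). These treated levels are below the lower quartile of their arrays, which began at 3.78 to 3.83, so the signal of ALX1 is near the dim end of the scale. The calls of RPS6KA6 and PTGR2 were lost in all 6 fits that left out 1 array, those of PRKAA2 and PABIR3 in 5, and those of ALX1 and USP2 in 4.

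Of the 14 pooled falls 12 had a lower mean at 8 h than at 4 h, as did 61.3% of all probe sets, and the 8 h arrays had the lowest scale. In the direct test of 8 h over 4 h ABCA1 was the 1 named fall that was called, and it was called neither after quantile normalization nor with centred arrays. An unnamed probe set had the largest pooled change of the 17, -3.13 ± 0.50 (adjusted p = 0.045 by limma), with 0.56, 1.76, 1.43 and 1.81 on the treated arrays against 4.30 and 4.74 in untreated cells. It stood at 5.44 to 6.28 with the BET inhibitor. Its levels with the inactive enantiomer lie below the lower quartiles of those arrays, 3.78 to 3.83. The size of this fall thus rests on a signal at the dim end of the scale. In Raji the probe set changed the opposite way, by 1.91 (interval 0.82 to 2.99), and was not called. The difference of 5.04 between the lines missed the threshold (adjusted p = 0.168 by limma).

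**Figure D3:**
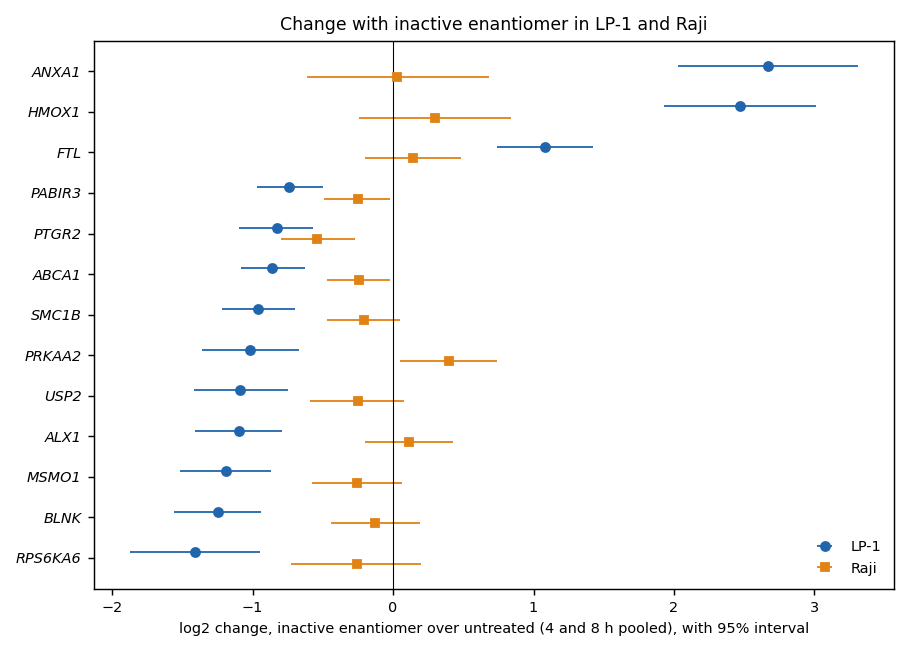
Log2 change, inactive enantiomer over untreated with 4 and 8 h pooled (horizontal axis; points with 95% intervals), for the 13 called genes in LP-1 (circles) and Raji (squares). HMOX1 changed by 2.47 in LP-1 and 0.30 in Raji, and ANXA1 by 2.67 and 0.03. The Raji levels of ANXA1 lie below the lower quartile of each array.

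The same comparison in Raji gave no call. Of 22011 probe sets 0 were called by limma (0%), with 1260 at an unadjusted p under 0.05 and a smallest adjusted p of 0.378. HMOX1 was low in Raji, at 4.84, 4.33, 4.24 and 5.0 with the inactive enantiomer against 4.74 and 3.87 in untreated cells, a change of 0.30 (95% interval -0.24 to 0.84). ANXA1 was at 2.40, 2.51, 2.14 and 3.02 with the inactive form, against 2.64 and 2.32, a change of 0.03 (-0.61 to 0.68). These ANXA1 levels lie below the lower quartiles of those Raji arrays, 3.73 to 3.77. At the dim end of the scale, a change near 0 says little about ANXA1 in Raji. The groups overlap in both genes. The difference between the lines was itself tested: the Raji change minus the LP-1 change was -2.17 ± 0.35 for HMOX1 and -2.63 ± 0.42 for ANXA1 (adjusted p = 0.168 by limma for each). No probe set passed that test (0%), with 1467 at an unadjusted p under 0.05, so for no gene is the response shown to belong to LP-1 alone.

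Among the falls, MSMO1 changed by -0.26 (-0.58 to 0.06) and BLNK by -0.13 (-0.44 to 0.19) in Raji, and their differences between lines were 0.94 (adjusted p = 0.476) and 1.13 (adjusted p = 0.287). PTGR2 had the Raji change nearest to its LP-1 change, -0.54 against -0.83, with a difference of 0.30 ± 0.17 (adjusted p = 0.801). ABCA1 changed by -0.24 (-0.47 to -0.02) and PABIR3 by -0.25 (-0.49 to -0.02) in Raji. All named falls other than ALX1 (0.11) and PRKAA2 were below 0 in Raji, as were 54.2% of all probe sets. PRKAA2 changed by 0.40 in Raji (0.05 to 0.74), opposite in sign to LP-1, and this difference of 1.41 also missed the threshold (adjusted p = 0.168 by limma). Its Raji levels were 3.43, 3.55, 3.23 and 3.48 with the inactive enantiomer, against 3.01 and 3.04 in untreated cells. All lie below the lower quartiles of those arrays, 3.73 to 3.77, so this Raji change rests on a signal at the dim end of the scale.

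More probe sets were called against untreated cells at 8 h alone than at 4 h. At 4 h 3 probe sets were called (0.0136%), 2 higher (0.00909%) and 1 lower (0.00454%): HMOX1, ANXA1 (2.68) and ALX1 (-1.27), each with an adjusted p of 0.0325 by limma. At 8 h 111 were called (0.504%), 10 higher (0.0454%) and 101 lower (0.459%), of which 88 had a single symbol. Of these 111, 106 had the same sign at 4 h, but the share of all probe sets that did so was not computed. Below 0 were 56.4% of all probe sets at 4 h and 61.3% at 8 h. At 4 h 80 of the 111 had an unadjusted p under 0.05 by limma, as did 4.95% of all probe sets. Both times were set against the same untreated arrays, so their agreement is not independent. The falls at 8 h ran from -0.56 to -3.41 with a median of -1.0. The count of 111 followed the array scale and single arrays. It was 19 after quantile normalization (6 higher, 13 lower) and 34 with median-centred arrays (10 higher, 24 lower), and the 8 h arrays had the lowest upper quartiles. It was 24 without 8 h replicate 1, 21 without 8 h replicate 2, 9 without untreated replicate 1 and 11 without untreated replicate 2. The 3 calls at 4 h became 1 (1 higher) after quantile normalization and 2 (2 higher) with centred arrays, and 0 without any 1 of the 4 arrays compared.

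The rises at 8 h with a single symbol were ANXA1 (2.66), HMOX1, FTL (1.04), OR52A5 and PRPS1L1. OR52A5, an olfactory receptor gene, was at 1.38 and 1.22 with the inactive enantiomer at 4 h and 3.28 and 2.65 at 8 h, against 1.43 and 1.61 in untreated cells (8 h change 1.44 ± 0.24, adjusted p = 0.034 by limma). PRPS1L1, a testis relative of phosphoribosyl pyrophosphate synthetase, was at 2.02 and 2.36 at 8 h, against 0.98 and 1.32 (1.04 ± 0.20, adjusted p = 0.0468). Both lie below the lower quartile of every array, and neither was called after quantile normalization.

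Among genes with a single symbol, the largest falls at 8 h were those of RPS6KA6 (-1.84 ± 0.25, adjusted p = 0.0101 by limma), ZNF415 (-1.78 ± 0.32, adjusted p = 0.038), MSMO1 (-1.66 ± 0.17, adjusted p = 0.00257), ETFRF1 (-1.63 ± 0.31, adjusted p = 0.0456), BLNK (-1.56 ± 0.17, adjusted p = 0.00257) and DUSP1 (-1.52 ± 0.28, adjusted p = 0.0382). ZNF415 encodes a zinc finger protein, ETFRF1 a regulator of the mitochondrial electron transfer flavoprotein, and DUSP1 a phosphatase that switches off MAP kinases. ETFRF1 was at 7.64 and 7.02 with the BET inhibitor at 8 h and at 5.83 and 5.22 with the inactive enantiomer at 8 h, against 7.31 and 7.0 in untreated cells. The calls of ZNF415, ETFRF1 and DUSP1 were lost under either rescaling.

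The 2 times were also set against each other, without the untreated arrays. For 8 h over 4 h, 3 probe sets were called (0.0136%), all lower, and 1486 had an unadjusted p under 0.05. ABCA1 was at 4.34 and 4.28 at 8 h, against 5.28 and 5.15 at 4 h, a change of -0.91 ± 0.12 (adjusted p = 0.0483 by limma). LIMA1, an actin-binding protein also known as EPLIN, was at 5.49 and 5.48 at 8 h, against 6.75 and 6.58 at 4 h, a change of -1.18 ± 0.16 (adjusted p = 0.0483). Its 8 h level was close to that of untreated cells, 5.69 and 5.43, so that the 4 h arrays stood apart. The count became 1 (lower, neither ABCA1 nor LIMA1) after quantile normalization and 0 with centred arrays. It was 0 without 4 h replicate 1 or 2, 5 without 8 h replicate 1 and 1 without 8 h replicate 2, and ABCA1 and LIMA1 were called in none of these 4 fits.

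Sterol genes were the list with the lowest median. Cells make cholesterol through the mevalonate pathway, and its enzymes are switched on together by SREBP factors when membrane sterol runs low. Of 30 listed sterol synthesis genes and SREBP targets 21 were measured. MSMO1 was the 1 called lower with both times pooled (0.0636% of all probe sets were) and 0 were called higher, while the median change was -0.37, against -0.051 over all probe sets. The pooled estimate was below 0 for 21 of 21 members, against 59.8% of all probe sets, and for 20 of 21 under either rescaling. At 8 h 3 members were called lower, as were 0.459% of all probe sets: MSMO1, HMGCS1 and INSIG1. HMGCS1, which makes the HMG-CoA that feeds the mevalonate pathway, was at 9.10 and 9.21 with the inactive enantiomer at 4 h and 8.27 and 8.5 at 8 h, against 9.28 and 9.53 in untreated cells (8 h change -1.02 ± 0.17, adjusted p = 0.034 by limma).

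INSIG1, the sterol-regulated anchor that keeps SREBP in the endoplasmic reticulum, was at 9.19 and 9.13 at 4 h and 8.40 and 8.82 at 8 h, against 9.36 and 9.77 in untreated cells (8 h change -0.96 ± 0.17, adjusted p = 0.038 by limma). The list's 8 h median was -0.57, against -0.081 over all probe sets, and quantile normalization left 2 of the 3 calls and centring 1. SQLE, squalene epoxidase, changed by -0.71 ± 0.17 at 8 h (adjusted p = 0.0846) and IDI1, an isomerase of the mevalonate pathway, by -0.89 ± 0.18 (adjusted p = 0.0525). FASN, fatty acid synthase, changed by -0.23 ± 0.11 (adjusted p = 0.371). In Raji the list's median was -0.17 with 0 of 21 called by limma and 6 at an unadjusted p under 0.05, all of them lower. As in LP-1, the estimate was below 0 for 21 of 21 members, against 54.2% of all probe sets in Raji.

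With the BET inhibitor, MSMO1 was at 8.44 and 8.40 at 4 h and at 7.42 and 7.72 at 8 h, close to its levels with the inactive form. The inhibitor minus inactive difference was -0.34 (95% interval -0.71 to 0.03) at 4 h and -0.27 (-0.64 to 0.10) at 8 h, neither called. HMGCS1 differed by 0.06 (-0.31 to 0.43) and 0.01 (-0.36 to 0.38). INSIG1 was higher with the inhibitor at both times, by 0.77 (adjusted p = 0.0399 by limma) and 0.72 (adjusted p = 0.0304). BLNK differed by -0.02 (-0.38 to 0.34) and -0.34 (-0.70 to 0.02) between the active and the inactive form, neither called.

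**Figure D4:**
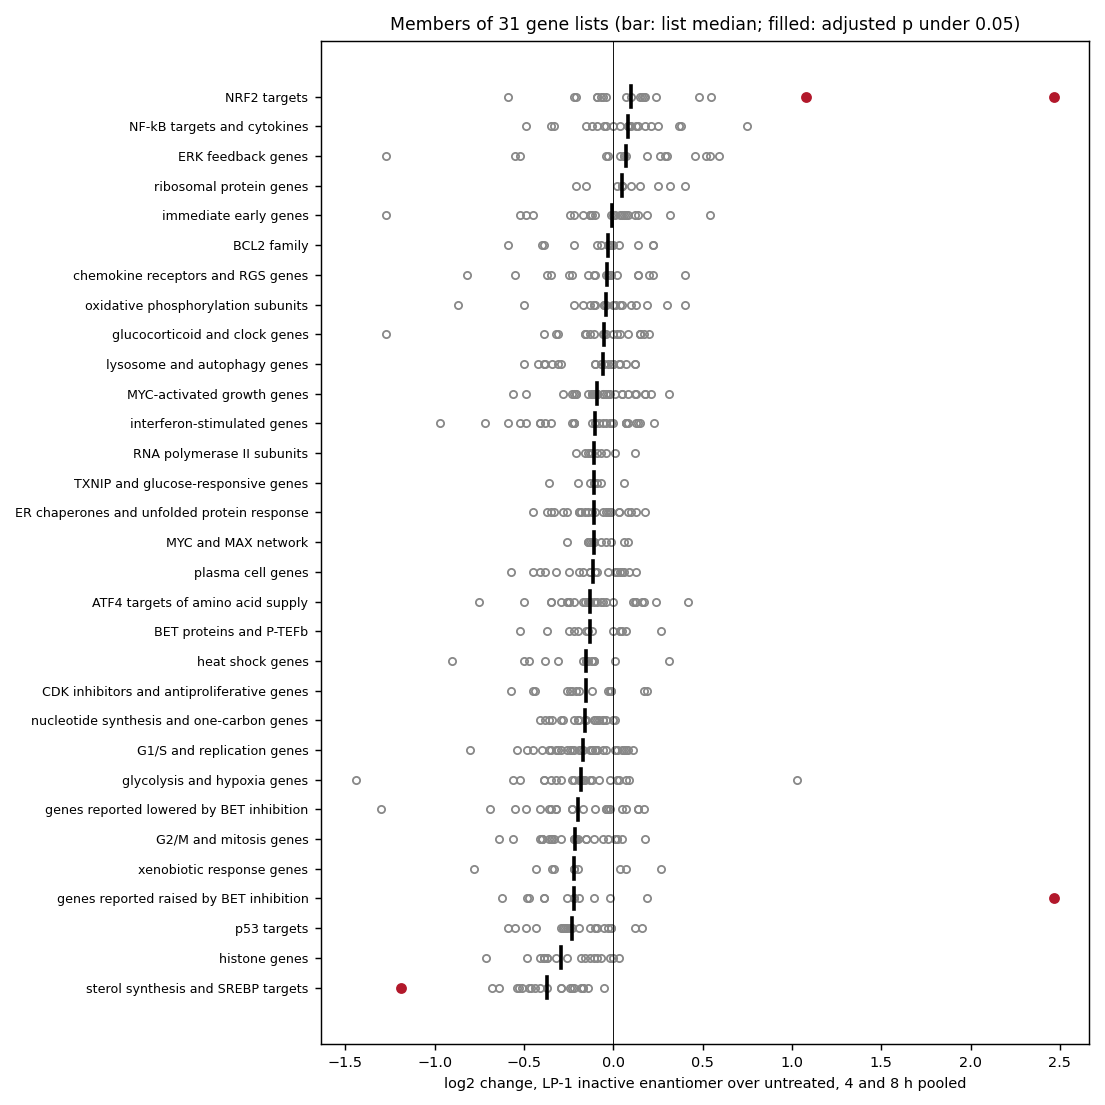
Pooled log2 change, LP-1 inactive enantiomer over untreated (horizontal axis), of every measured member (circles) of 31 gene lists, with each list's median (black bars) and called members filled. HMOX1 and FTL stand apart at the right of the NRF2 list, and all 21 members of the sterol list lie below 0.

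Of the 31 gene lists 3 held a called member with both times pooled: NRF2 targets, sterol genes, and genes reported to be raised by BET inhibition, whose 1 called member was again HMOX1. The other 28 lists held 515 different measured genes with 0 called by limma, beside 0.0772% of all probe sets. At so low a share, the lack of a call does not show that these lists were unchanged. Of the 515, 11 higher and 75 lower had an unadjusted p under 0.05 by limma, together a larger share than the 11.1% of all probe sets. That share over all probe sets was not split by direction, and whether the listed genes differ from it was not tested. Histone genes had a median of -0.29 (20 measured), p53 targets -0.23 (21 measured) and G2/M genes -0.21 (28 measured), against 0.10 for NRF2 targets and 0.08 for NF-kB targets (22 measured). After quantile normalization these medians were -0.16, -0.16 and -0.12, against 0.18 and 0.15. Ribosomal protein genes had a median of 0.05 (11 measured), and oxidative phosphorylation subunits one of -0.04 (21 measured), which turned to 0.01 after quantile normalization. No heat shock gene was among the calls (15 measured, median -0.15), with HSPA4L, a chaperone of the HSP110 family, at -0.90 ± 0.22 (adjusted p = 0.146) and HSPA8, the constitutive HSP70, at -0.15 ± 0.09 (adjusted p = 0.564).

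Immediate early genes, which serum or stress induces within minutes, had 0 of 24 called with both times pooled and 2 called lower at 8 h, as were 0.459% of all probe sets. EGR1, a zinc finger factor of growth signalling, was at 6.14 and 6.33 with the inactive enantiomer at 4 h and 4.96 and 5.37 at 8 h, against 6.13 and 6.32 in untreated cells (8 h change -1.06 ± 0.17, adjusted p = 0.0269 by limma). DUSP1 was at 5.69 and 5.58 at 4 h and 4.76 and 5.52 at 8 h, against 6.71 and 6.61. EGR1 thus stood among the untreated arrays at 4 h, while all 4 treated arrays of DUSP1 lay below both untreated ones, and both calls were lost under either rescaling. At 8 h 11 of the 31 lists held a call, some of them sharing a gene. The lower members of the other lists were PECAM1 (-1.49 ± 0.27, adjusted p = 0.038), an adhesion molecule, CCNE2 (-1.01 ± 0.18, adjusted p = 0.038), the cyclin E of the G1/S step, CCNG2 (-0.84 ± 0.15, adjusted p = 0.038), an antiproliferative cyclin, VLDLR (-0.81 ± 0.15, adjusted p = 0.0436), a lipoprotein receptor, and TNFRSF10B (-0.66 ± 0.13, adjusted p = 0.0468), a death receptor for TRAIL. None of these 5 was called under either rescaling.

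MYC, CCR1 and HEXIM1, which the BET inhibitor changed in LP-1, did not pass the test with the inactive enantiomer, and neither did BRD2. MYC was at 7.38 and 7.18 with the BET inhibitor at 4 h and 7.66 and 7.49 at 8 h. With the inactive enantiomer it was at 9.59 and 9.58 at 4 h and 9.37 and 9.47 at 8 h, against 9.33 and 9.76 in untreated cells. The inactive-treated arrays lay between the untreated ones, and all inhibitor-treated arrays lay below both. The change with the inactive enantiomer was -0.04 with a 95% interval of -0.34 to 0.25 (adjusted p = 0.957 by limma), and the sign turned to 0.04 after quantile normalization and 0.02 with centred arrays. Inhibitor minus inactive form gave -2.30 at 4 h with an adjusted p of 5.25e-05, and -1.85 at 8 h with an adjusted p of 7.19e-05.

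CCR1, a chemokine receptor, was at 3.92 and 3.89 with the inhibitor at 4 h and 2.80 and 3.54 at 8 h. With the inactive enantiomer it was at 7.24 and 7.33 at 4 h and 6.67 and 7.16 at 8 h, against 7.24 and 7.42 in untreated cells, and these last groups overlapped. The inactive form changed it by -0.23 (interval -0.96 to 0.5, adjusted p = 0.881 by limma, not called), and the inhibitor was 10.4-fold below the inactive form at 4 h (adjusted p = 0.00109) and 13.4-fold below at 8 h (adjusted p = 0.000223). Its 8 h levels with the inhibitor lie below the lower quartiles of those arrays, 3.89 and 3.84, so the 8 h fold rests on a signal at the dim end of the scale.

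HEXIM1, the inhibitor of the elongation kinase P-TEFb, was at 8.29 and 8.07 with the BET inhibitor at 4 h and 8.68 and 8.34 at 8 h. With the inactive form it was at 7.14 and 7.13 at 4 h and 6.98 and 7.14 at 8 h, against 7.41 and 7.22 in untreated cells. Its inactive-treated and untreated arrays did not overlap, but the change of -0.22 (interval -0.48 to 0.04) was not called (adjusted p = 0.537 by limma), while the inhibitor differed from the inactive form by 1.04 at 4 h (adjusted p = 0.00269) and 1.45 at 8 h (adjusted p = 0.000108). BRD2, itself a BET protein, was at 9.52 and 9.71 with the inactive enantiomer at 4 h and 9.55 and 9.53 at 8 h, against 9.45 and 9.57 in untreated cells (change 0.07, interval -0.15 to 0.28, adjusted p = 0.885).

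Of 22 genes reported to be lowered by BET inhibition 0 were called with both times pooled and 1, PECAM1, was lower at 8 h, as were 0.459% of all probe sets. PECAM1 was at 7.12 and 7.83 with the inhibitor at 4 h and at 5.20 and 4.80 at 8 h. With the inactive enantiomer it was at 7.87 and 7.78 at 4 h and 7.30 and 7.57 at 8 h, against 9.03 and 8.82 in untreated cells, so that the inhibitor at 8 h gave the lowest arrays of the 5 groups. Of 14 BET and P-TEFb genes and 12 of the MYC and MAX network measured, 0 were called by limma with both times pooled. The share over all probe sets was 0.0772%, so this count says little about these genes.

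**Figure D5:**
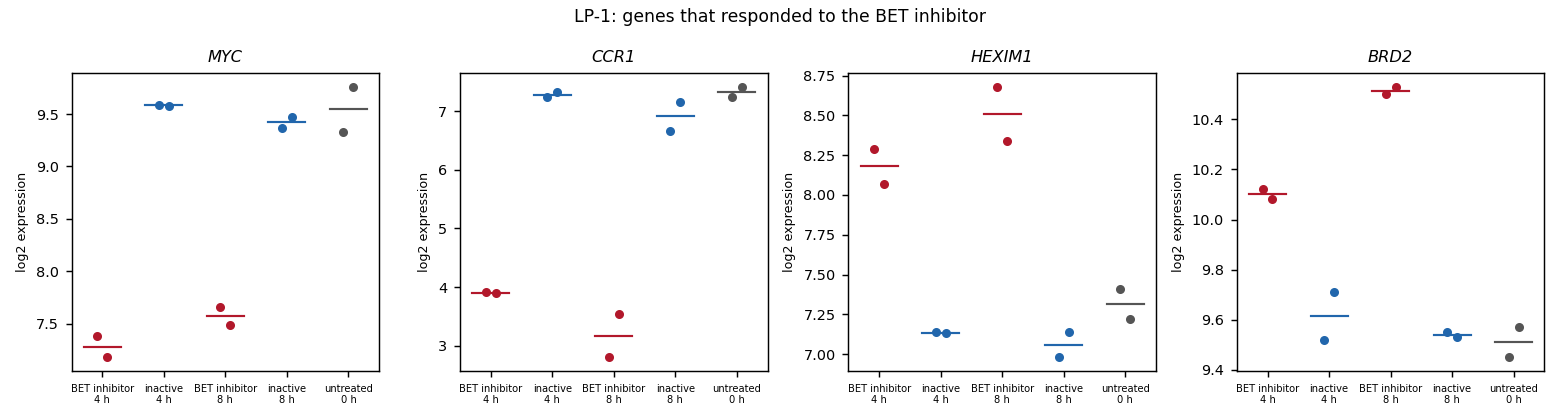
Log2 expression on each LP-1 array (points; lines, group means of 2 arrays) of MYC, CCR1, HEXIM1 and BRD2, with the BET inhibitor left of the inactive enantiomer at each time and untreated cells at the right. MYC is at 9.37 to 9.59 with the inactive form and at 9.33 and 9.76 in untreated cells, and each vertical axis has its own range.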

How the data were processed

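Total RNA of LP-1 and Raji cells was amplified, labelled with biotin and hybridised to Affymetrix exon arrays, per the labels. The authors used RMA in Affymetrix Expression Console on hg19 (versions not given), per the submitters' processing notes, and deposited log2 values. RMA normalizes across arrays, yet the deposited upper quartiles differ and were used as they are. Of 22011 probe sets, all tested, 14432 had 1 gene symbol (14404 matched to RefSeq), 2408 several and 5171 none. A gene with several stands in a list by its brightest.

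Group means were estimated with limma 3.58.1 (R 4.3.3) from all 20 arrays, which share 1 spread per probe set over 10 groups (10 residual and 2.59 prior degrees of freedom). The method was tested on simulated data. The pooled comparison is the mean of both times minus untreated, 1 of 8 comparisons made. The 2 arrays per group limit precision.

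The comparison, the 31 gene lists and the 6 marker lists were chosen with earlier results of these data known. Named genes are MYC, HEXIM1, BRD2 and CCR1, the 12 largest calls each way whose groups do not overlap (6 in other comparisons), and up to 4 members per list with the smallest p. GCLM, TXNRD1, GCLC, SQLE, IDI1 and FASN were named after their values were seen. Alternatives were quantile normalization, median centring, leaving out the 7337 dimmest probe sets, an intensity trend, robust moderation, fewer arrays, a replicate block and each array left out.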

Additional observations from a re-analysis of the deposited data

Results flagged for a closer look

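Between the 2 times of the inactive enantiomer in LP-1, 2 named genes differed by a test of the difference itself. ABCA1 was lower at 8 h than at 4 h by -0.91 on the log2 scale, and LIMA1 by -1.18. Both had an adjusted p of 0.0483 by limma, and neither was called in any of the 4 fits that left out 1 array, where the adjusted p reached 0.403.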

How the results depend on the processing

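HMOX1 kept its pooled and its 8 h call under every alternative run for it, and the Raji count and the count for Raji minus LP-1 stayed at 0 under every alternative run for them. The pooled count of 17 became 10 after quantile normalization, 1 with the arrays of LP-1 alone (HMOX1), 2 with the 6 arrays alone (HMOX1 and ANXA1), 2 with the 4 inactive arrays as 1 group, and 5 to 14 when 1 array was left out. It was 20 without the 7337 dimmest probe sets, with 11 of the 17 kept, and 20 with an intensity trend, with all 17 kept. ANXA1, RPS6KA6, ALX1, PRKAA2 and SMC1B were among the dimmest probe sets over all 20 arrays, so the former setting did not test them. The 3 calls at 4 h became 1 after quantile normalization, 1 without the 7337 dimmest probe sets, 1 with LP-1 arrays alone and 0 in each leave-one-out fit. The 111 calls at 8 h became 19 after quantile normalization, 34 with centred arrays, 1 with LP-1 arrays alone and 9 to 24 with 1 array left out, but 164 without the 7337 dimmest probe sets (152 lower, 82 of the 111 kept) and 122 with an intensity trend. The 3 calls for 8 h over 4 h became 1 after quantile normalization, 0 with centred arrays, 0 with an intensity trend, 0 with LP-1 arrays alone and 0 to 5 with 1 array left out. The 502 and 1262 calls for BET inhibitor over inactive enantiomer at 4 and 8 h became 76 and 347 with LP-1 arrays alone, and 64 to 971 and 485 to 985 with 1 array left out. Fits to fewer arrays have fewer residual degrees of freedom; the cause of the other shifts was not tested.

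Replicate numbers did not pair the arrays: the correlation of replicate deviations was 0.03 to 0.05 among the 3 LP-1 groups. With the replicate number as a block, the pooled count was 13, the 4 h count 0, the 8 h count 51 and the count for 8 h over 4 h was 0.

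Over 150 results of named genes and 2162 refits, 1973 kept direction and side of the threshold, 179 lost the call, 2 gained one and 8 turned sign, none of the 8 a called gene. Those were MYC (0.04 after quantile normalization, 0.02 with centred arrays, -0.26 to 0.17 with 1 array left out, the higher without untreated replicate 2), MLXIP (0.00) and POLR2C (0.01) after quantile normalization, MLX (0.03 after quantile normalization, -0.25 to 0.02 with 1 array left out, the higher without untreated replicate 1) and HEXIM2 (-0.14 to 0.67 with 1 array left out, the lower without untreated replicate 2). The 2 untreated arrays enter every difference from untreated cells, and no setting can part the compound from time in culture.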
